A study of Homo sapiens with 12 samples.

Results

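The response of LX-2 cells to TGF-β1 was compared between cells with and without siRNA against NAT10, gene by gene, as a difference of differences. LX-2 is an established human hepatic stellate cell line, used in culture as a model of liver fibrosis. All 12 RNA-seq libraries of the study entered the comparison, and 18560 of the 58735 genes in the count table had enough counts to be tested. The 4 groups held 3 libraries each: cells with neither agent (con), cells given TGF-β1 at 5 ng/ml for 24 h (TGFB), cells transfected with NAT10 siRNA by Lipofectamine (SiNAT10), and cells transfected with that siRNA and given TGF-β1 48 h later, at the same dose and for the same time (SiNAT10_TGFB). The labels describe every group as wild type and name no group with a control siRNA, so an effect of NAT10 loss and an effect of transfection cannot be told apart. The sources used here do not give the time from transfection to harvest of the SiNAT10 cells.

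In each cell, TGF-β1 binds a pair of receptor kinases that phosphorylate SMAD2 and SMAD3, which join SMAD4, enter the nucleus and act at target genes together with factors such as AP-1. In stellate cells the pathway is known for turning on collagens, fibronectin, matrix crosslinking enzymes and contractile genes, and for feedback through SMAD7 and the SKI proteins. NAT10 is an acetyltransferase of the nucleolus that modifies cytidines of rRNA, tRNA and some mRNAs.

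Throughout, the response without siRNA is the log2 fold change of TGFB over con, the response with siRNA is that of SiNAT10_TGFB over SiNAT10, and the difference is the second minus the first. A negative difference is a smaller rise, a larger fall, or a rise that became a fall. The 2 responses share no library. Each was tested with edgeR's quasi-likelihood test on all 12 libraries and called at a Benjamini-Hochberg adjusted p under 0.05 over all genes tested. Levels are CPM, the count of a gene scaled to a common library total, after TMM scaling.

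Library totals ran from 25877008 to 35132582 counts, so that 3 counts corresponded to 0.0871 to 0.115 CPM. The median within-group SD of log2 CPM was 0.128 in con, 0.123 in TGFB, 0.173 in SiNAT10 and 0.144 in SiNAT10_TGFB. NAT10 itself averaged 67.2 and 67.0 CPM in con and TGFB and 18.6 CPM in both siRNA groups, and its difference was −0.00 (SE 0.12). Of 10 stellate cell markers 7 were tested. LRAT, DES and HGF were not, and LRAT had 0 counts in any library. The 6 hepatocyte markers summed to less than 1 CPM in every library, at 0.882 CPM or less, and none was tested. Whether the 3 libraries of a group came from separate cultures is not stated beyond the words biological replicate, so each p-value reflects the spread among the libraries, which may be technical.

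Fewer genes were called for a response to TGF-β1 with siRNA than without, and the median absolute response was smaller. Without siRNA 4472 genes (24.1% of those tested) were called, 2213 higher (11.9%) and 2259 lower (12.2%). With siRNA 2054 genes (11.1%) were called, 1098 higher (5.92%) and 956 lower (5.15%). The median absolute response was 0.225 without and 0.164 with siRNA on the log2 scale, at median standard errors of 0.127 and 0.129. Both responses were called for 1601 genes, which were 35.8% of the first set and 77.9% of the second, and 1571 of them moved in the same direction. Across the genes tested the responses had a Pearson r of 0.433 and a Spearman rho of 0.396. These are descriptions, since genes are not independent replicates.

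The difference between the responses was called for 714 genes (3.85%). It was positive for 360 genes (1.94%) and negative for 354 (1.91%), and 164 differences reached 1 log2 unit in size, 64 positive and 100 negative. Without TMM factors, on library size alone, the split was 641 positive and 290 negative, 68.9% against 50.4% positive, because that scaling moved the median difference by 0.07. With each library's trend on GC content removed, 1411 genes were called, among them 713 of the 714. Leaving out 1 library gave 513 calls without TGFB replicate 1 and 970 without SiNAT10 replicate 3. No called difference changed sign under any alternative setting that gave it a value or with any library left out.

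Most called differences were smaller responses. For 604 genes (84.6% of those called) the response was called without siRNA and was smaller with it or was not called. Of these, 264 were called in both arms, 178 were not called with siRNA but had the same sign, and 162 were not called with siRNA and had the other sign. A larger response in the same direction was called for 17 genes (2.38%). Both responses were called in opposite directions for 30 genes (4.20%), and 54 genes (7.56%) were called only with siRNA. The other 9 (1.26%) were called in neither arm. The smaller class thus includes genes called only without siRNA, whereas those called only with siRNA form a class of their own. By size alone, the response with siRNA was the smaller for 622 of the 714 called genes and the larger for 92. The small classes depended on single libraries. The larger class held 10 genes without con replicate 3 or TGFB replicate 1 and 11 without con replicate 1 or SiNAT10_TGFB replicate 1. The opposite class held 17 without SiNAT10 replicate 2, 18 without SiNAT10_TGFB replicate 1 and 48 without SiNAT10 replicate 3. Those called only with siRNA numbered 34 without SiNAT10 replicate 2 and 89 without SiNAT10 replicate 3. Those called in neither arm numbered 4 to 22 with a library left out.

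**Figure D1:**
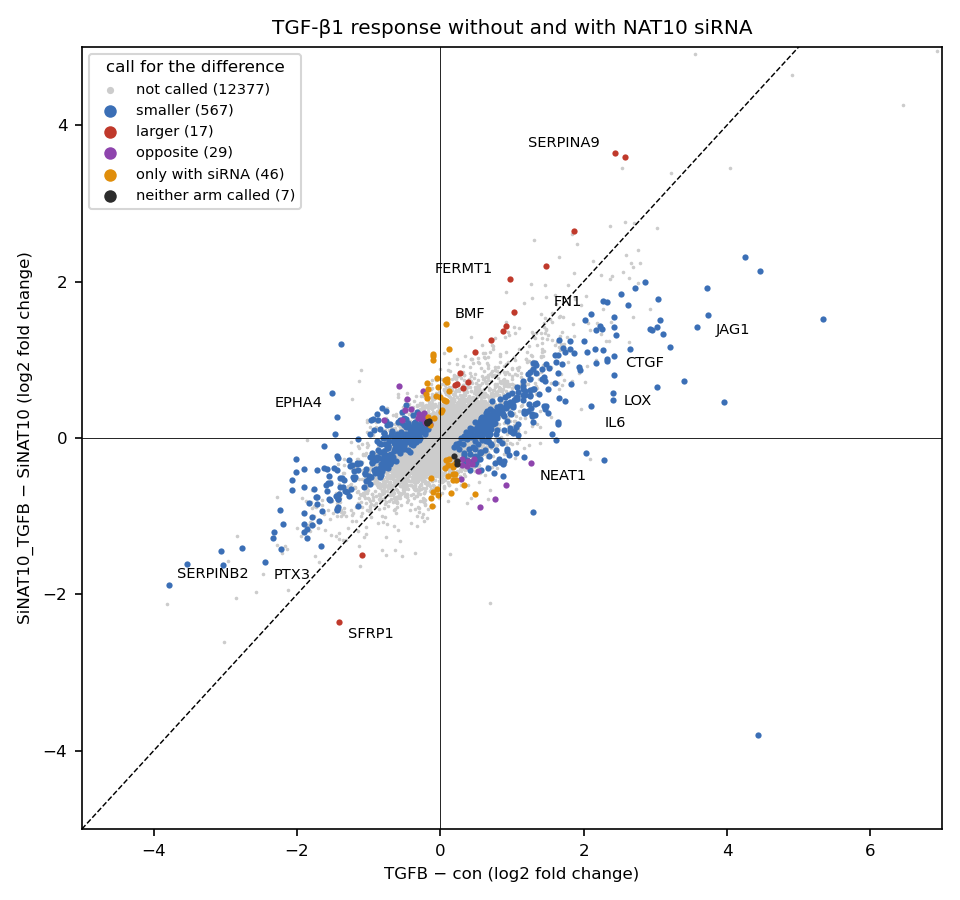
Log2 response to TGF-β1 without siRNA (x axis, TGFB over con) and with NAT10 siRNA (y axis, SiNAT10_TGFB over SiNAT10) for 13043 genes with a mean of at least 50 counts; 1 gene lies outside the axes. Colours give the class of each called difference, and the dashed line marks equal responses. JAG1, LOX, CTGF and IL6 lie below the line at high x, SERPINB2 above it at low x, and FERMT1 and SERPINA9 above it at positive x.

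Direct targets of the TGF-β/SMAD pathway rose with TGF-β1 in both arms, and the rise was smaller in cells with siRNA. Of 44 tested genes of that list, 39 rose without siRNA and 35 with it, against 11.9% and 5.92% of all genes, and 35 did both. The median response was 1.69 without and 0.96 with siRNA, against medians of −0.01 and −0.00 over all genes tested. The difference was called for 22 of them, negative for 21 and positive for 1, against 3.85% of all genes, and its median was −0.50. The count of negative calls ran from 21 to 25 under all settings tried.

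JAG1, CTGF and LOX had differences of more than 1 log2 unit in size and among the smallest p-values of all genes. JAG1, a Notch ligand (ENSG00000101384, chromosome 20, 10637684 to 10673999, minus strand, GRCh38), is not on the SMAD list and was named for its small p. It stood at 25.04, 24.0 and 22.6 CPM in con and at 307, 316 and 330 CPM in TGFB. With siRNA it went from 29.8, 28.6 and 29.9 CPM to 91.3, 78.3 and 92.0 CPM. The TGF-β1 libraries lay above the unstimulated ones in both arms without overlap, 13.3-fold higher on average without siRNA and 2.97-fold with it. Its difference was −2.16 (SE 0.10, adjusted p = 3.31e-12, edgeR).

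CTGF, the connective tissue growth factor (ENSG00000118523, chromosome 6, 131948176 to 131951373, minus strand), is a matricellular protein of fibrosis. It stood at 207, 226 and 229 CPM in con and at 1159, 1232 and 1172 CPM in TGFB. With siRNA it stood at 207, 191 and 189 CPM before and at 366, 347 and 314 CPM after TGF-β1. The unstimulated groups stood close together, while the stimulated groups stood far apart. The response was 2.43 without and 0.81 with siRNA, a difference of −1.62 (SE 0.09, adjusted p = 3.91e-11).

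LOX, lysyl oxidase (ENSG00000113083, chromosome 5, 122063195 to 122078360, minus strand), crosslinks collagen and elastin. It stood at 41.0, 39.3 and 39.0 CPM in con and at 213, 219 and 204 CPM in TGFB. The SiNAT10 libraries stood at 25.7, 24.7 and 28.4 CPM and the SiNAT10_TGFB libraries at 39.2, 36.3 and 42.2 CPM. With siRNA and TGF-β1 together, LOX was thus within the range of the con libraries or next to it. The response was 2.41 without and 0.58 with siRNA, a difference of −1.83 (SE 0.10, adjusted p = 5.82e-11).

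The promoters of JAG1 and LOX are shown as examples of genes with smaller rises, from RefSeq on GRCh38.p14, 250 bases before to 50 after the start of transcription, 5′ to 3′ on the gene's strand. Capitals mark exact matches to the SMAD box CAGAC on either strand (GTCTG on the other). That motif was in 45.0% of all 27305 RefSeq promoters, in 50.7% of the 223 of genes with a negative difference and in 42.8% of the 269 of genes with a positive one. Within the list of direct TGF-β/SMAD targets it was in 8 of 14 promoters of members called negative and in 11 of 17 of the other members. It was thus not more frequent among the called members. The promoter of DSP, which also rose less with siRNA, had no match to CAGAC. It held the GC-rich SMAD site GGCGCC, which was in 19% of all RefSeq promoters. SERPINB2, with a positive difference, had matches to CAGAC. A match is only a stretch of letters, and no test was made. The LOX window (chr5:122078210-122078509, minus strand) has 2 matches and the JAG1 window (chr20:10673950-10674249, minus strand) has 1.
JAG1: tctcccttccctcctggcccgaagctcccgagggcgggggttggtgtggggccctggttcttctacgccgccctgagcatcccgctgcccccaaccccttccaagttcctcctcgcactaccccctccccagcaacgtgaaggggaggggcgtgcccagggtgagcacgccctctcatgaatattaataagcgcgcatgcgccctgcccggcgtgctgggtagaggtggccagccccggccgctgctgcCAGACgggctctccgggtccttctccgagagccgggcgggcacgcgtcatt
LOX: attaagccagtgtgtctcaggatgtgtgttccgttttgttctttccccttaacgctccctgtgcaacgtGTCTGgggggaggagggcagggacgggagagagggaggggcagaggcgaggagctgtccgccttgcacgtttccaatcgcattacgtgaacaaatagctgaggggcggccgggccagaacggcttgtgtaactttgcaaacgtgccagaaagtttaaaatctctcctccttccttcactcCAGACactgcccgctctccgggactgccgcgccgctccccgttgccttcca

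Other genes that TGF-β1 raised also had a smaller response with siRNA. TGFBI, a secreted matrix adaptor, stood at 1007, 1127 and 1098 CPM in con and at 7952, 7611 and 7958 CPM in TGFB. In the siRNA arm it went from 752, 675 and 698 to 2862, 2735 and 2883 CPM. The SiNAT10_TGFB libraries lay below all TGFB libraries and above all unstimulated ones. The responses were 2.86 and 2.00, a difference of −0.87 (SE 0.07, adjusted p = 2.77e-08). TAGLN, the actin-binding protein transgelin, responded by 2.16 and 1.14 (difference −1.02, SE 0.09). The cytokine gene LIF responded by 2.10 and 0.40 (difference −1.70, SE 0.13).

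Among the called members with a smaller rise were the transcription factor genes JUNB, BHLHE40 and SNAI1. JUNB, an AP-1 subunit, responded by 2.33 without and 1.01 with siRNA (difference −1.32, SE 0.12). It started higher with siRNA, at 61.9 ± 6.52 CPM (SD, n = 3) against 24.95 ± 1.59 CPM, and ended at like levels, 125 ± 8.05 and 126 ± 9.59 CPM. BHLHE40, a repressor of the clock system, showed the same arrangement, from 322 ± 16.1 to 587 ± 6.29 CPM with siRNA and from 155 ± 3.04 to 602 ± 25.2 CPM without. SNAI1, which represses epithelial genes, responded by 2.32 and 0.98 (difference −1.34, SE 0.19). For these 3 genes a smaller fold change stood beside a higher unstimulated level, while for LOX and TAGLN the unstimulated level with siRNA was lower than without, at 26.3 ± 1.92 and 123 ± 7.29 CPM against 39.8 ± 1.06 and 258 ± 16.8 CPM.

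**Figure D2:**
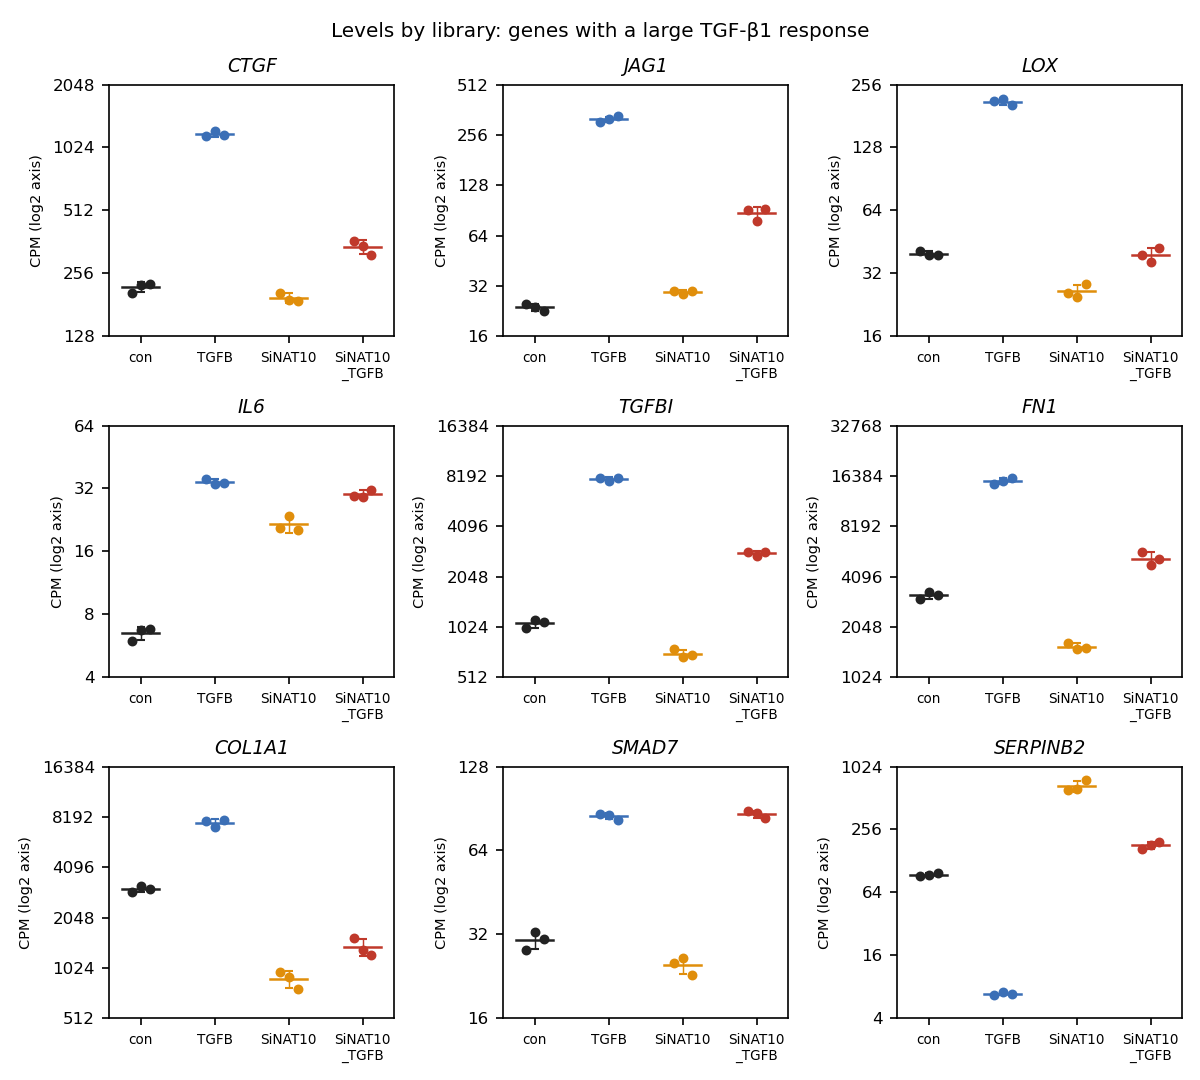
CPM on a log2 axis in each of the 12 libraries for 9 genes with a large TGF-β1 response; horizontal lines are group means and bars are SD (n = 3). CTGF, JAG1 and LOX rose less with siRNA, IL6 started higher and ended near the same level, SMAD7 ended at 82.4 to 88.4 CPM in both arms, and SERPINB2 stood higher in both siRNA groups.

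Of 20 tested feedback inhibitors of SMAD signalling, 8 rose and 4 fell without siRNA, 7 rose and 2 fell with it, and the median difference was 0.06. Among all genes 11.9% rose and 12.2% fell without siRNA, and 5.92% rose and 5.15% fell with it. A positive difference was called for 2 members and a negative one for none, against 1.94% and 1.91% of all genes. With 5 of the 10 other scalings, filters, tools and model terms, 1 or 2 members had a called negative difference, as 1 had without con replicate 3 or SiNAT10 replicate 3. SMAD7, which blocks the receptors, stood at 28.2, 32.7 and 30.9 CPM in con and at 86.4, 86.0 and 82.4 CPM in TGFB, and went from 25.3, 26.4 and 22.9 to 88.4, 87.3 and 83.6 CPM with siRNA. The stimulated groups overlapped. Its response was 1.47 and 1.80, and the difference of 0.32 (SE 0.10) had an adjusted p of 0.0880 in edgeR. It passed the threshold, at 0.33 to 0.40, with DESeq2, on library size alone and with the GC trend removed. SMURF2, a ubiquitin ligase that targets receptors and SMADs, rose more with siRNA. It went from 239 ± 3.05 to 298 ± 1.97 CPM without siRNA and from 425 ± 21.1 to 665 ± 5.28 CPM with it, a difference of 0.33 (SE 0.07, adjusted p = 0.00797). NEDD4L, a related ligase, fell by 0.97 without and by 0.59 with siRNA on the log2 scale.

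Of 18 receptor and SMAD genes tested, 3 rose and 3 fell without siRNA, and 2 rose and 3 fell with it, against the shares of all genes (11.9% and 12.2% without siRNA, 5.92% and 5.15% with it). The difference was called for 1, against 3.85% of all genes. This was SMAD3, the main transducer of the signal. It fell from 335 ± 12.9 to 211 ± 7.80 CPM without siRNA and from 305 ± 7.03 to 258 ± 13.6 CPM with it, a difference of 0.43 (SE 0.08, adjusted p = 0.00199). Among 25 ligand and ligand-binding genes of the family, 4 had called differences, all negative, against 1.91% of all genes. INHBA, the subunit of activin A, responded by 1.94 and 0.91 (difference −1.03, SE 0.09), and TGFB1 itself by 1.42 and 0.89 (difference −0.53, SE 0.11, adjusted p = 0.00460). BMP1, a procollagen protease, differed by −0.38, a call that was lost on library size alone and with the replicate block (replicate number as a model term) and kept with a library left out only for con replicate 2, TGFB replicate 2, SiNAT10 replicate 3 or SiNAT10_TGFB replicate 1. GDF6 stood at 2.70 to 3.20 CPM in TGFB and at 0.143 CPM or less in the other 9 libraries, near the level of 3 counts, so no fold change is given for it. Its call was lost when any TGFB library or con replicate 2, SiNAT10 replicate 3, SiNAT10_TGFB replicate 1 or SiNAT10_TGFB replicate 3 was left out, and with the replicate block.

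Targets of bone morphogenetic proteins, the sister branch of the family, went different ways. ID1, ID2 and ID3 encode inhibitors of basic helix-loop-helix factors. ID2 fell without siRNA from 11.9 ± 0.859 to 4.38 ± 0.747 CPM, with a response of −1.44, and its response with siRNA was −0.23. ID3 rose by 0.55 without siRNA, and with it the response was −0.27 (difference −0.82, SE 0.13). ID1 was called only with siRNA, where it fell from 18.8 ± 1.91 to 11.7 ± 1.64 CPM. Its difference of −0.59 (SE 0.14, adjusted p = 0.0143) was −0.52 without TGFB replicate 1, −0.51 without SiNAT10 replicate 2 and −0.48 without SiNAT10_TGFB replicate 1, and in those 3 cases did not pass. Of 11 genes tested in the list, 1 had a positive and 2 had negative called differences, against 1.94% and 1.91% of all genes.

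Among the fibrillar collagens, the main load-bearing proteins of scar tissue, 8 of 10 tested genes rose without siRNA and 6 with it. The shares of all genes that rose were 11.9% and 5.92%. Median responses were 1.37 and 0.78. The difference was called for 3 genes, all negative, against 1.91% of all genes. COL1A1, which encodes 1 of the chains of type I collagen, stood at 2922, 3170 and 3032 CPM in con and at 7753, 7096 and 7800 CPM in TGFB. In the siRNA arm it went from 965, 907 and 769 to 1548, 1313 and 1231 CPM. All siRNA libraries, stimulated or not, lay below all con libraries. The response was 1.31 and 0.63, a difference of −0.68 (SE 0.10, adjusted p = 0.000228). COL27A1 responded by 2.23 and 1.43 (difference −0.79, SE 0.11). COL5A2 responded by 0.54 and 0.12. It no longer passed without con replicate 3, TGFB replicate 1 or SiNAT10_TGFB replicate 2 and with library size alone. In the list of other collagens, 13 genes were tested and the median difference was 0.28. A positive difference was called for 2 of them and a negative one for none, against 1.94% and 1.91% of all genes. These were COL8A1, at 0.71 (adjusted p = 0.00402, edgeR), and COL12A1, at 0.34 (adjusted p = 0.0127). The call of COL12A1 was lost without TGFB replicate 1.

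COL3A1 and COL1A2 were not called. COL3A1, the type III collagen chain, stood at 62.7 ± 4.37 and 200.25 ± 5.85 CPM without siRNA and at 9.71 ± 1.70 and 23.9 ± 3.84 CPM with it. Its responses were 1.68 and 1.30, and the difference was −0.37 with an adjusted p of 0.210. Its level with siRNA was thus far lower in both states while the fold change was not distinguishable. Leaving out SiNAT10 replicate 1 gave −0.51, past the threshold. COL1A2 stood at 0.609 to 7.12 CPM in all libraries, with responses of 2.05 and 0.92 and a difference of −1.12 (SE 0.37, adjusted p = 0.0997), which became −1.32, past the threshold, without SiNAT10 replicate 3.

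Of 30 tested enzymes that hydroxylate, cleave or crosslink collagen, 15 rose and none fell without siRNA and 8 rose with it. Among all genes 11.9% rose and 12.2% fell without siRNA, and 5.92% rose with it. The difference was called for 7, all negative, against 1.91% of all genes, and 23 were not called. Beside LOX and BMP1 these included P4HA1, P4HA2 and PLOD2, which hydroxylate proline or lysine residues. P4HA2 went from 190.1 ± 9.48 to 399 ± 6.70 CPM without siRNA and from 286 ± 14.05 to 413 ± 14.2 CPM with it, a difference of −0.54 (SE 0.08, adjusted p = 0.000128). The stimulated groups stood close together, at 394 to 407 and 397 to 424 CPM.

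Matrix glycoproteins had 7 negative and 3 positive called differences among 28 tested, against 1.91% and 1.94% of all genes. FN1, fibronectin, stood at 3003, 3325 and 3186 CPM in con and at 14741, 15362 and 15981 CPM in TGFB. With siRNA it went from 1647, 1507 and 1539 to 5760, 4798 and 5188 CPM, higher than the con libraries and far below the TGFB libraries. The difference was −0.53 (SE 0.08, adjusted p = 0.000153), and the siRNA libraries stood below con already without TGF-β1. THBS1, thrombospondin 1, which can activate latent TGF-β, responded by 2.42 and 1.54 (difference −0.87, SE 0.08). SPARC, a collagen-binding glycoprotein, responded by 1.16 and 0.35, from 1342 ± 64.5 to 1711 ± 42.8 CPM with siRNA. FBLN5, an elastic fibre protein, was among the positive ones, with responses of 1.48 and 2.202 and a difference of 0.72 (SE 0.19, adjusted p = 0.0253). Its call was lost in limma's voom test, and with a library left out it was kept only for con replicate 2, TGFB replicate 1 or 2, SiNAT10 replicate 1 or SiNAT10_TGFB replicate 2. On the linear scale its rise was smaller with siRNA by 1.08 CPM.

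Of 21 basement membrane genes tested, 4 had negative and 1 had a positive called difference, against 1.91% and 1.94% of all genes. COL4A1 and COL4A2, paired chains of type IV collagen, moved together, COL4A1 by 2.03 and 1.51 and COL4A2 by 1.32 and 0.96. The positive call was COL4A6, another type IV chain, at 0.70 (adjusted p = 0.00669, edgeR). Its level fell by 13.6 CPM without siRNA and by 15.3 CPM with it. Proteases and their inhibitors had 8 negative and 1 positive called difference among 36 tested, against the same shares. TIMP3, an inhibitor bound to the matrix, responded by 1.47 and 0.73 (difference −0.73, SE 0.09). TIMP1 responded by 0.14 and 0.44, and its difference of 0.30 (SE 0.09) had an adjusted p of 0.0682. It passed with DESeq2, on library size alone, with the GC trend removed, without the filter on low counts, and without con replicate 1 or SiNAT10 replicate 1.

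Contractile and actin genes rose in both arms, 29 of 40 without siRNA and 23 with it, against 11.9% and 5.92% of all genes. The difference was called for 5, all negative, against 1.91% of all genes. These were TAGLN, ACTN1, MYL9 and CNN3, and TPM2, which is named here after its values were seen. ACTN1, alpha-actinin of focal contacts, went from 2478 ± 154 to 4129 ± 84.8 CPM without siRNA and from 1487 ± 148 to 1734 ± 36.1 CPM with it, a difference of −0.52 (SE 0.08, adjusted p = 0.000320). ACTA2, the smooth muscle actin by which activated stellate cells are usually recognised, stood at 2.73 to 5.63 CPM in all libraries, and its difference of −0.38 (SE 0.28) had an adjusted p of 0.566. Exons on the other strand cover 30.1% of ACTA2, and the sources used here do not say whether counting was stranded, so its counts are less certain. The same holds for exons over 14.2% of JUNB, 11.4% of TAGLN and 17.7% of NQO1.

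**Figure D3:**
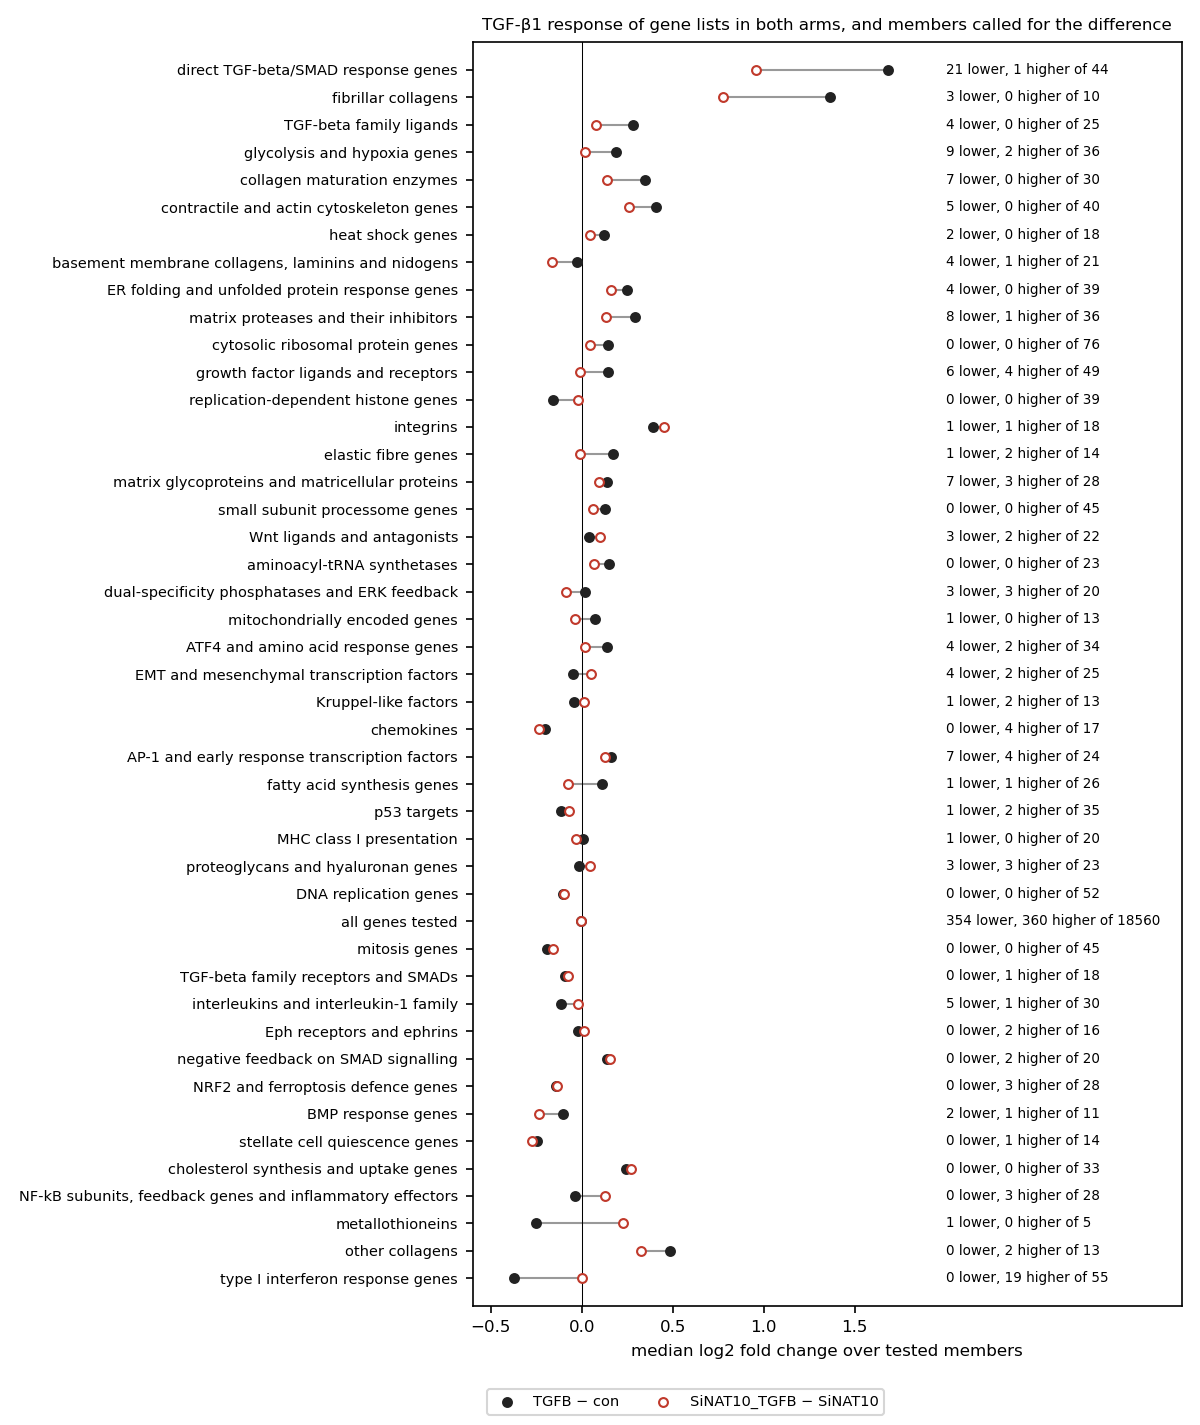
Median log2 response to TGF-β1 over the tested members of each gene list, without siRNA (filled) and with NAT10 siRNA (open), ordered by median difference; numbers give members with a called negative or positive difference. The SMAD response list went from 1.69 to 0.96 and the interferon list from −0.37 to 0.00, while all genes tested had medians of −0.01 and −0.00.

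Type I interferon response genes had the most called positive differences of the 44 lists. These genes encode antiviral proteins and are switched on when interferon binds its receptor. Of 55 tested, 2 rose and 32 fell with TGF-β1 without siRNA, and 6 rose and 4 fell with it. Among all genes 11.9% rose and 12.2% fell without siRNA, and 5.92% rose and 5.15% fell with it. The median response was −0.37 without and 0.00 with siRNA. The difference was called for 19, all positive, against 1.94% of all genes tested, and its median was 0.39. A smaller response was called for 13 of the 19, an opposite one for 4, and 1 each was called only with siRNA or in neither arm. Among all called genes these classes made up 84.6%, 4.20%, 7.56% and 1.26%. Over the settings tried, 14 to 28 members were called positive. The response with siRNA exceeded that without in 46 of the 55, against 9384 of the 18560 genes tested. A higher mean level in SiNAT10 than in con was found in 49 of the 55, and the share among all genes was not computed. Across the lists this count ran from 0 of 45 mitosis genes to 71 of 76 cytosolic ribosomal protein genes, so it was not particular to interferon genes.

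IFIT3, an RNA-binding antiviral protein (ENSG00000119917, chromosome 10, 89327894 to 89340971, plus strand), stood at 77.2, 69.4 and 70.7 CPM in con and at 48.4, 52.3 and 50.02 CPM in TGFB. In siRNA-treated cells it went from 191, 188 and 206 CPM to 217, 218 and 250 CPM. The groups did not overlap in either arm, and the order was reversed, with TGFB below con and SiNAT10_TGFB above SiNAT10. The responses were −0.53 and 0.23, a difference of 0.75 (SE 0.10, adjusted p = 2.33e-05).

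OASL, a member of the oligoadenylate synthetase family, showed the same reversal. It went from 56.8, 54.0 and 49.7 to 37.5, 39.6 and 38.7 CPM without siRNA and from 118, 122 and 144 to 173, 172 and 197 CPM with it. The difference was 0.97 (SE 0.11, adjusted p = 4.59e-06). TRIM25, a ubiquitin ligase of the RIG-I pathway, fell in both arms but less with siRNA, by 0.92 and by 0.27 on the log2 scale. HERC5, the ligase for ISG15, named here after its values were seen, had the largest difference of the list, with responses of −0.98 and 0.05 (difference 1.03).

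The IFIT3 promoter (RefSeq, GRCh38.p14, chr10:89327747-89328046, plus strand) is shown because its gene reversed direction and it holds the core of the interferon-stimulated response element in 2 places, read on the other strand. Capitals also mark 1 match to CAGAC and 1 to the TEAD motif GGAATG. The core was in 3.65% of all RefSeq promoters. It was in 8 of the 16 promoters found for called members of the interferon list and in 20 of the 27 found for members not called, so it was not more frequent among the called ones.
IFIT3: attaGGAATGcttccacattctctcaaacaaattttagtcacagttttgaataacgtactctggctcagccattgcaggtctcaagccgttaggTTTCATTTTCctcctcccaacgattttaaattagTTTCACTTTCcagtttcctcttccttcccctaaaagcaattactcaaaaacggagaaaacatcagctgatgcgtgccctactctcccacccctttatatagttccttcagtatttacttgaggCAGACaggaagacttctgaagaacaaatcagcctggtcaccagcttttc

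**Figure D4:**
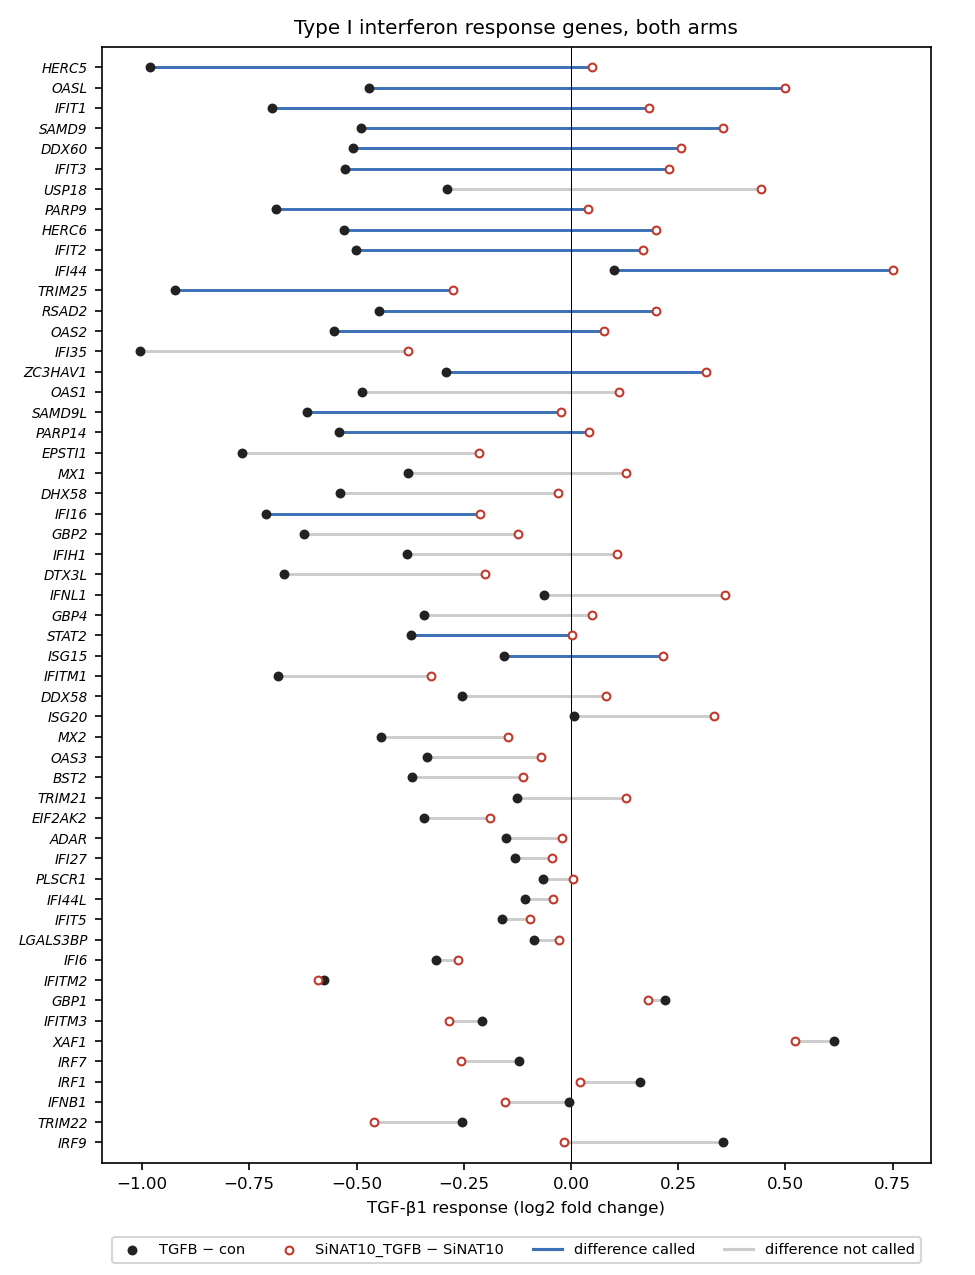
Log2 response to TGF-β1 of 54 of the 55 tested type I interferon response genes without siRNA (filled) and with NAT10 siRNA (open), ordered by the difference; blue lines join the responses of the 19 genes with a called difference. In 45 genes shown the response with siRNA lies to the right of the other.

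Inflammatory genes were split. The interleukin list had 5 negative and 1 positive called difference among 30 tested, against 1.91% and 1.94% of all genes. IL6, an acute-phase cytokine, went from 5.98, 6.70 and 6.84 to 35.5, 33.6 and 34.1 CPM without siRNA and from 20.7, 23.7 and 20.2 to 29.5, 29.3 and 31.6 CPM with it. The SiNAT10 libraries stood above con and the SiNAT10_TGFB libraries below TGFB. The responses were 2.40 and 0.48, a difference of −1.92 (SE 0.13, adjusted p = 2.15e-09). Exons on the other strand cover 20.7% of IL6, so this value is less certain. The chemokine list had 4 positive called differences among 17 tested, against 1.94% of all genes. These were CXCL1, CXCL5, CXCL6 and CXCL8, all attractants of neutrophils, which fell less on the log2 scale with siRNA. CCL3L1, a chemokine gene outside that list and named here after its values were seen, had a called difference of −2.23 (SE 0.39, adjusted p = 0.000948), so chemokine genes were not called in 1 direction alone. It stood at 0.0581, 0.667 and 0.531 CPM in con, at 1.64, 1.58 and 1.82 CPM in TGFB, and at 10.8 to 14.4 CPM in the siRNA-treated libraries. The first con value lies below the level of 3 counts in that library, 0.0871 CPM. The call held when its counts were added to those of its copy CCL3, at −1.58 (adjusted p = 0.00567). CCL3 alone was not called, at −0.43 (adjusted p = 0.689, edgeR), so the opposite direction rests on CCL3L1. The call of CXCL5 was lost in voom and without TGFB replicate 1, TGFB replicate 3 or SiNAT10_TGFB replicate 2. That of CXCL6 was kept, with a library left out, only for con replicate 2, TGFB replicate 1, SiNAT10 replicate 3 or SiNAT10_TGFB replicate 2. CXCL8 went from 64.4 ± 4.93 to 35.7 ± 5.73 CPM without siRNA and from 510.02 ± 90.0 to 486 ± 62.1 CPM with it.

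NF-κB feedback genes and effectors had 3 positive and no negative called differences among 28 tested, against 1.94% and 1.91% of all genes. NFKBIA, which holds NF-κB in the cytoplasm, had responses of −0.49 and 0.05 (difference 0.54, SE 0.09), and PTX3, a secreted pentraxin, of −2.44 and −1.59 (difference 0.85, SE 0.10). Genes of the NRF2 defence against oxidants also had 3 positive and none negative among 28, against the same shares. NQO1 and TXNRD1, a quinone reductase and a thioredoxin reductase, fell less with siRNA, by 0.22 against 0.76 and by 0.55 against 1.03. HMOX1, heme oxygenase 1, stood at 18.5, 18.1 and 19.6 CPM in con and at 22.8, 17.5 and 18.5 CPM in TGFB, which overlapped. With siRNA it rose from 63.5, 68.7 and 61.1 to 113, 113 and 97.9 CPM, a difference of 0.68 (SE 0.13, adjusted p = 0.00201).

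Glycolysis and hypoxia genes had 9 negative and 2 positive called differences among 36 tested, against 1.91% and 1.94% of all genes. Of these 36, 20 rose without siRNA and 5 with it, against 11.9% and 5.92% of all genes, and the median response was 0.19 and 0.02. VEGFA, the vascular growth factor, responded by 1.71 and 1.15 while ADM, the vasodilator adrenomedullin, fell by 1.33 and by 0.67. NDRG1 went from 45.6, 52.0 and 50.1 to 60.6, 61.4 and 60.1 CPM without siRNA and from 139, 121 and 117 to 96.5, 97.1 and 104 CPM with it. Its direction thus turned, with a difference of −0.65 (SE 0.10, adjusted p = 0.000315). Early response transcription factors had 7 negative and 4 positive called differences among 24 tested, against the same shares. Of these 11, 10 were smaller responses, as were 84.6% of all called genes.

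In 7 lists edgeR called no difference with the settings used throughout, and for 6 of them other settings called a few. For the counts by arm that follow, 11.9% of all genes rose and 12.2% fell without siRNA. With siRNA 5.92% rose and 5.15% fell. Of 45 mitosis genes, 24 fell without siRNA and 13 with it, with median responses of −0.19 and −0.16. None had a called difference, 3 had an unadjusted p under 0.05, and DESeq2 and voom called 0, while edgeR with the GC trend removed called 4. Of 33 cholesterol genes, 18 rose without siRNA and 16 with it, at medians of 0.24 and 0.27. None was called in edgeR or voom, 7 had an unadjusted p under 0.05, DESeq2 called 2, and edgeR with the GC trend removed called 4. Leaving out a library, another scaling or another filter on low counts gave up to 2. Of 76 cytosolic ribosomal protein genes, 21 rose without siRNA and 0 with it, with medians of 0.14 and 0.05. No difference was called by edgeR, DESeq2 or voom (6 at an unadjusted p under 0.05), and 1 was with the GC trend removed. The difference was nonetheless below 0 for 69 of the 76, at a median of −0.11, against 9176 of the 18560 genes tested. Of 45 genes of the small subunit processome, to which NAT10 belongs, 11 rose and 1 fell without siRNA, 3 rose with it, and 1 was called with the GC trend removed. Of 23 aminoacyl-tRNA synthetases, 9 rose without siRNA and 2 with it. The other 2 lists hold DNA replication and histone genes. Without siRNA 1 of 52 DNA replication genes rose and 7 fell, and the 39 histone genes tied to replication had 2 higher and 2 lower, against 11.9% and 12.2% of all genes. With siRNA 4 of the replication genes fell, against 5.15% of all genes, and no histone gene was called. Removing the GC trend called the difference of 1 histone gene and of 0 replication genes. In these last 4 lists edgeR, DESeq2 and voom called 0, with 2, 1, 5 and 7 members at an unadjusted p under 0.05 in the order given. Leaving out a library called up to 1 member each of the mitosis, ribosomal protein, processome and replication lists.

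Genes with opposite responses included a long noncoding RNA and secreted proteins. NEAT1, the RNA scaffold of nuclear paraspeckles, went from 170, 143 and 145 to 351, 362 and 387 CPM without siRNA. In the siRNA arm it went from 400, 494 and 427 to 385, 333 and 338 CPM. All libraries with TGF-β1 or siRNA stood above con, and the SiNAT10_TGFB libraries lay below the SiNAT10 libraries. The difference was −1.59 (SE 0.11, adjusted p = 2.72e-09).

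NPPB, the precursor of brain natriuretic peptide, rose from 15.0, 15.9 and 14.6 to 28.7, 28.9 and 28.2 CPM without siRNA and fell from 8.06, 8.78 and 8.95 to 4.96, 5.72 and 6.41 CPM with it. CEMIP, which binds and breaks down hyaluronan, rose from 15.5, 16.8 and 16.6 to 24.3, 23.8 and 23.9 CPM and fell from 8.23, 8.68 and 8.95 to 5.07, 4.72 and 4.24 CPM. The groups of NPPB and CEMIP did not overlap in either arm. Their differences were −1.51 (SE 0.15) and −1.44 (SE 0.15). TNFRSF10D, a decoy receptor for the death ligand TRAIL, and SH2D4A, an adaptor protein, went the other way, falling without and rising with siRNA, with differences of 0.83 (SE 0.09) and 1.01 (SE 0.09).

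Of the genes called only with siRNA, STC1, the hormone stanniocalcin 1, had one of the smallest p-values. It stood at 37.6, 33.5 and 36.4 CPM in con and at 41.0, 41.6 and 36.9 CPM in TGFB, which overlapped. With siRNA it fell from 465, 421 and 456 to 268, 277 and 281 CPM. The difference was −0.85 (SE 0.09, adjusted p = 1.45e-06). BMF, a pro-apoptotic BH3-only protein, stood at 5.15 to 6.55 CPM without siRNA in either state and rose from 7.93, 9.89 and 9.27 to 27.7, 23.8 and 22.7 CPM with it (difference 1.38, SE 0.18, adjusted p = 3.15e-05). WNT7B, a Wnt ligand, rose only with siRNA, from 23.8 ± 3.48 to 37.7 ± 3.22 CPM, against 6.13 ± 0.117 and 5.98 ± 0.318 CPM without.

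SOX9, a transcription factor of cartilage and bile duct cells and of activated stellate cells, fell with siRNA from 70.6, 65.6 and 62.3 to 35.3, 35.4 and 38.0 CPM. Without siRNA it stood at 39.3, 39.9 and 45.3 and at 37.4, 37.3 and 39.9 CPM. The SiNAT10 libraries were therefore the only high ones, and the difference was −0.75 (SE 0.11, adjusted p = 0.000120). SOX9 is also 1 of 5 cholangiocyte markers, whose sum was 66.1 to 73.8 CPM in SiNAT10 and 40.6 to 47.4 CPM in the other groups. Of the other 4 only KRT7 was tested, at 5.72 CPM or less, and EPCAM, KRT19 and CFTR stayed at or below 0.261 CPM, so the sum was almost all SOX9.

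Larger responses called in both arms in the same direction were few, at 17 genes. FERMT1, kindlin 1, which activates integrins, rose from 19.5, 21.6 and 18.02 to 39.1, 38.5 and 38.3 CPM without siRNA and from 13.0, 15.5 and 14.9 to 59.8, 58.2 and 58.5 CPM with it. It began lower and ended higher with siRNA, and the groups stood apart in both arms. The difference was 1.05 (SE 0.12, adjusted p = 4.59e-06). SERPINA9, a serine protease inhibitor, responded by 2.44 and 3.64, ending at 12.2 ± 0.752 and 30.0 ± 5.48 CPM. IGF1R, the receptor of insulin-like growth factor 1, rose by 0.28 and 0.83. SFRP1, a secreted Wnt antagonist, fell further on the log2 scale with siRNA, with responses of −1.41 and −2.35, although it dropped from a lower start, 53.9 ± 6.96 against 233 ± 3.37 CPM.

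**Figure D5:**
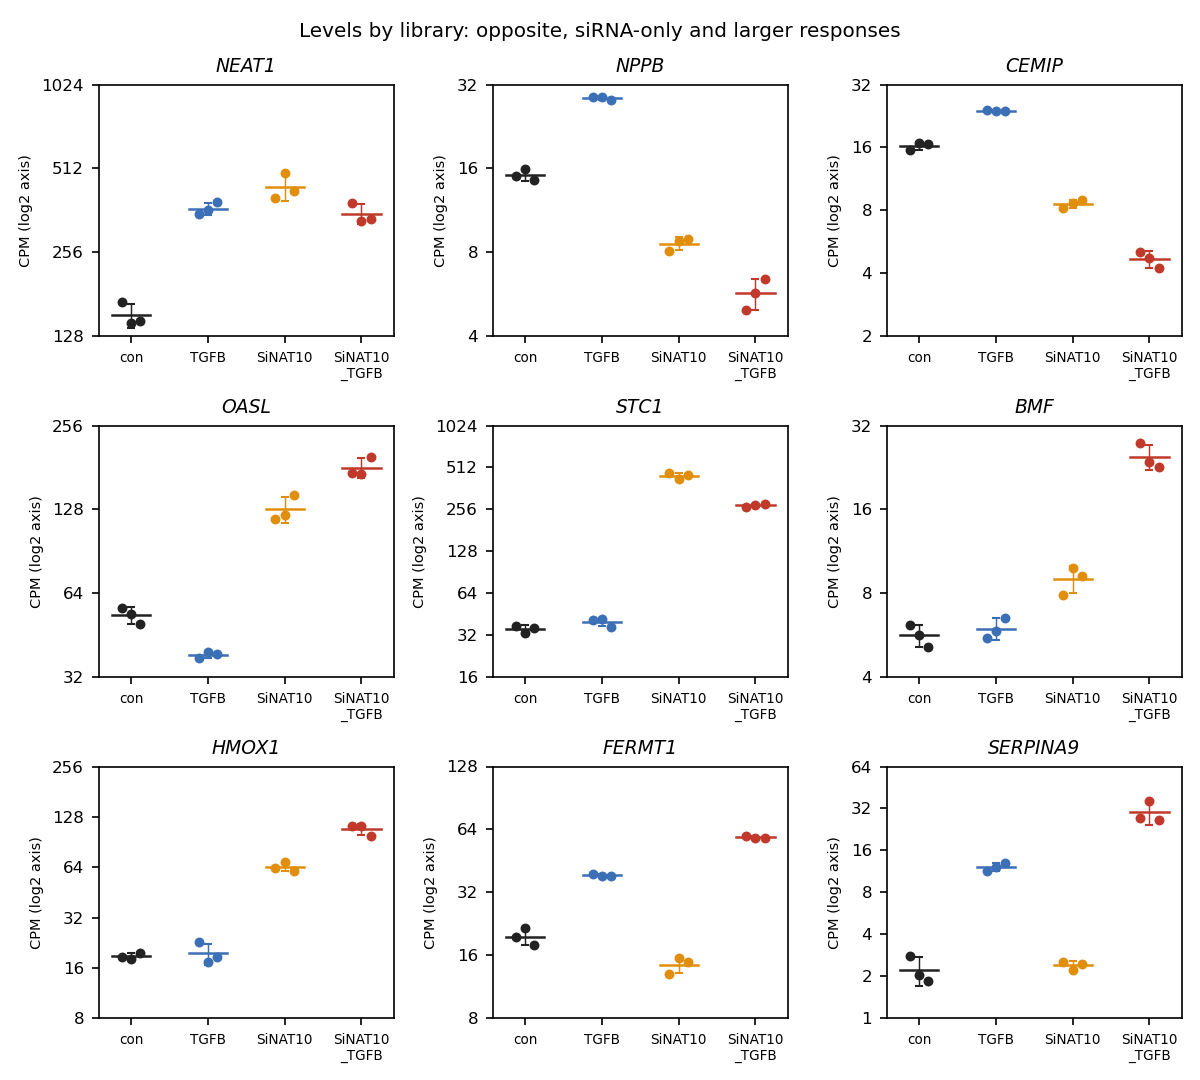
CPM on a log2 axis in each of the 12 libraries for 9 genes with opposite responses (NEAT1, NPPB, CEMIP, OASL), responses called only with siRNA (STC1, BMF, HMOX1) or larger responses (FERMT1, SERPINA9); lines are means and bars SD (n = 3). NEAT1, NPPB and CEMIP were higher in TGFB than in con and lower in SiNAT10_TGFB than in SiNAT10, and OASL showed the reverse.

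A difference of differences depends on the scale. Taken on mean CPM, the difference kept its sign for 680 of the 714 called genes and had the other sign for 34, of which 27 were positive and 7 negative on the log2 scale. SERPINB2, plasminogen activator inhibitor 2 (ENSG00000197632, chromosome 18, 63871692 to 63903890, plus strand), is the clearest case. It stood at 91.6, 93.7 and 99.2 CPM in con and at 6.67, 7.08 and 6.78 CPM in TGFB, a fall of 3.79 on the log2 scale. With siRNA it went from 606, 630 and 764 to 167, 183 and 195 CPM, a fall by 1.88. The difference was 1.92 (SE 0.12, adjusted p = 4.34e-10) on the log2 scale, while in CPM it dropped by 88.0 without siRNA and dropped by 485 with siRNA. Exons of other genes on the same strand cover 19.9% of SERPINB2, so its counts are less certain.

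CXCL1, CXCL5, PTX3 and TXNRD1 likewise fell less in fold and more in CPM with siRNA. ANGPTL4 and VEGFA rose less in fold and more in CPM, by 20.7 and 79.6 CPM without siRNA against 77.0 and 104.6 CPM with it. SFRP1 fell more in fold and less in CPM. The unstimulated levels of the arms differed, as for CXCL1 at 36.3 ± 3.56 CPM in con and 159 ± 9.80 CPM in SiNAT10. In the SMAD response list the sign was kept for 20 of the 22 called members, and in the interferon list for all 19.

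EPHA4 and SERPINB2 were among the largest positive differences of genes with a mean of at least 50 counts. EPHA4, an ephrin receptor kinase, fell from 17.6, 18.3 and 19.4 to 6.33, 6.43 and 7.66 CPM without siRNA. In siRNA-treated cells it went from 15.3, 14.1 and 15.4 to 18.2, 17.97 and 17.9 CPM, a response of 0.27, and the difference was 1.70 (SE 0.15, adjusted p = 6.41e-08). KCNK3, a potassium channel, had one of the largest negative ones, −2.37 (SE 0.28), from 1.26 ± 0.157 to 10.2 ± 1.14 CPM without and from 1.54 ± 0.249 to 2.42 ± 0.269 CPM with siRNA. PKNOX2 had a difference of −3.82, at 10.6 to 12.7 CPM in TGFB and 1.01 CPM or less elsewhere. Its call was lost in DESeq2 and without SiNAT10 replicate 2, at −2.63, or SiNAT10_TGFB replicate 3, at −3.69.

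Genes with near-identical copies were less certain. BOLA2B had the most negative difference, −8.23 (SE 1.93, adjusted p = 0.0132), but its counts came from 1 TGFB library at 23.3 CPM and 1 SiNAT10 library at 24.7 CPM, with all others at 0.729 CPM or less. The call was lost in voom and without TGFB replicate 1 or SiNAT10 replicate 1. U2AF1L5 had a difference of 2.58, which became 1.30 with an adjusted p of 0.135 when its counts were added to those of its copy U2AF1, and whose call was also lost in DESeq2, in voom and without con replicate 3 or SiNAT10_TGFB replicate 2. Summed with their copies, BOLA2B (−7.76, adjusted p = 0.0105), RN7SL2 (−2.23, adjusted p = 0.00881) and CCL3L1 kept their calls. The summed BOLA2 counts still came from 1 TGFB library at 23.37 CPM and 1 SiNAT10 library at 24.87 CPM. RN7SL2 made up nearly all of its sum, so that check could not decide. It ran from 225.8 to 724.5 CPM in TGFB and from 251.5 to 828.5 CPM in SiNAT10. RN7SL2, an RNA of the signal recognition particle, lost its call in DESeq2. Summing copies was chosen after the data had been seen.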

How the data were processed

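Gene counts of 12 LX-2 RNA-seq libraries, in 4 groups of 3 as the labels give them, were deposited by the authors for 58735 genes. The submitters' processing notes name fastp, HISAT2 2.2.1 and the hg38 build. The counting tool, annotation and strand setting were not given in the sources used here. All gene identifiers had the start and end of GENCODE release 29. The deposited FPKM values were not used. Values of certain single genes are not reported here.

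In R 4.3.3, edgeR 4.0.16 kept 18560 genes by filterByExpr, holding 99.88 to 99.93% of the counts, scaled libraries by TMM (factors 0.9217 to 1.069) and fitted 4 group means to the 12 libraries. The difference of differences and both responses were quasi-likelihood contrasts, each adjusted by Benjamini-Hochberg over all genes tested. Standard errors were obtained by dividing the size of a log2 value by the root of its F statistic. Depth set the precision: 3 counts were 0.0871 to 0.115 CPM. The script was tested on simulated counts with known changes.

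The 44 gene lists rest on general knowledge and are described by counts and medians, without a test. Up to 4 members per list by smallest p were named, as were the 8 largest differences per direction among called genes with a mean of at least 50 counts, the 5 smallest p-values per class, and 11 genes of the study's subject whatever their p. Members, lists and rules were chosen with earlier results of these data known. Replicate numbers did not pair the libraries: 0 of 18 pairs of same-numbered libraries had correlated deviations over 0.1 (r −0.0729 to 0.0485). Alternatives were other scalings, filters, DESeq2 1.42.0, limma 3.58.1 voom, removal of a GC trend (spline of 5 degrees of freedom), a replicate block, a threshold of 0.01 and each library left out.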

Additional observations from a re-analysis of the deposited data

Results flagged for a closer look

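For 8 of the named genes both responses passed the threshold in opposite directions, and the difference between them was itself called by edgeR (adjusted p under 0.05). TGF-β1 raised NEAT1, NPPB, CEMIP and NDRG1 without siRNA and lowered them with it, with differences of −1.59, −1.51, −1.44 and −0.65 on the log2 scale. It lowered SH2D4A, OASL, TNFRSF10D and IFIT3 without siRNA and raised them with it, with differences of 1.01, 0.97, 0.83 and 0.75. In each of the 8, the groups did not overlap in either arm. Calls in both arms were the ground for choosing them, so this lack of overlap was likely beforehand and adds no support. No cause of the turn was tested.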

How the results depend on the processing

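The 714 called differences kept their sign under every setting tried that gave them a value. The 2 lists the report leads with stayed at 21 to 25 negative calls (SMAD targets) and 14 to 28 positive calls (interferon genes). Among the 211 named genes only NAT10, whose difference is near 0, changed sign: 0.000399 with RLE scaling, 0.0737 with library size alone, 0.0164 without a filter, 0.0184 with the GC trend removed, 0.0148 with GC and the replicate block, 0.00265 in DESeq2, and −0.0775 to 0.102 with a library left out. Library size alone gave 641 positive calls. Without a filter 27 were larger and 23 in neither arm, with a mean of at least 50 counts 4 were in neither arm, and with DESeq2 15 were. Removing the GC trend gave 810 positive and 601 negative calls (1143 smaller, 41 larger, 73 opposite, 121 only with siRNA, 33 in neither arm), and with the replicate block as well 705 and 536 (1007, 37, 62, 109 and 26 in the same order). The cause of this rise was not tested. At an adjusted p under 0.01 there were 174 positive and 209 negative calls (335, 7, 9, 27 and 5 in the same order), and 1302 genes responded with siRNA.

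The replicate block alone gave 591 calls, 286 positive and 305 negative, of which 589 were among the 714, and 1 of 12 libraries correlated best with its own number. With a library left out, positive calls ran from 245 to 464, negative from 268 to 506, smaller responses from 434 to 787, larger from 10 to 24, opposite from 17 to 48, only with siRNA from 34 to 89 and in neither arm from 4 to 22. The response without siRNA had 3572 to 5008 calls and that with siRNA 1556 to 2112. Depth limits genes near 0.115 CPM or below.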

Other observations

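Several smaller families held members that went different ways. Among 22 Wnt genes tested, 3 called differences were negative and 2 positive, against 1.91% and 1.94% of all genes. WNT5B rose by 1.86 without and by 1.08 with siRNA, while DKK1, a secreted Wnt inhibitor, fell by 1.42 and by 0.88, with a difference of 0.54. Of 20 genes of the ERK feedback list, 3 had negative and 3 had positive called differences, against the same shares. DUSP1, a phosphatase of stress-activated kinases, went from 90.3 ± 3.94 to 221 ± 7.64 CPM without siRNA and from 322 ± 28.5 to 370.4 ± 26.5 CPM with it, a difference of −1.09. DUSP6, a phosphatase of ERK, was called only with siRNA, where it fell from 101 ± 5.88 to 72.0 ± 1.87 CPM, against 14.3 ± 1.14 and 15.5 ± 1.30 CPM without. Exons on the other strand cover 40.5% of DUSP6.

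Of the 714 genes with a called difference, 626 were protein coding and 36 were annotated as lincRNA. DSP, the desmosome protein desmoplakin, was among those with the smallest p-values, with responses of 2.43 and 1.05. KLF5, a Krüppel-like factor, fell without siRNA from 17.8 ± 0.424 to 10.6 ± 1.39 CPM and stood at 26.6 ± 2.55 and 26.8 ± 1.42 CPM with it. The difference of all genes tested had a Spearman rho of −0.0192 with transcript GC content, given as a description across 18552 genes.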
